A study of Mus musculus with 16 samples.

Results

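Autophagy delivers cytoplasm and damaged organelles to the lysosome inside a double-membrane vesicle. A kinase complex built around Ulk1 starts the process, a class III phosphatidylinositol 3-kinase complex built around Pik3c3 marks the growing membrane with PI3P, and a pair of ubiquitin-like conjugation reactions attach proteins of the ATG8 family (LC3 and GABARAP) to that membrane. Receptors such as Sqstm1 then bind ubiquitinated cargo on one side and ATG8 proteins on the other. In mouse oocytes, autophagosomes are found with endolysosomes and proteasomes in the endolysosomal vesicular assemblies (ELVAs) whose content is cleared during maturation. The transcripts of this machinery were therefore followed in oocytes with a conditional deletion of Psma7, the α4 subunit of the 20S proteasome.

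The genes were taken by name: every entry of the expression table whose symbol begins with Atg and a digit, together with 18 named components (Map1lc3a, Map1lc3b, Gabarap, Gabarapl1, Gabarapl2, Ulk1, Ulk2, Becn1, Rb1cc1, Pik3c3, Pik3r4, Uvrag, Sqstm1, Nbr1, Optn, Tax1bp1, Wipi1 and Wipi2). This gave 41 entries under 37 gene names, of 28618 entries in all. Atg4a, Atg4a-ps, Gabarap and Atg2a had 2 entries each, which are called entry 1 and entry 2 in the order of the table. The rule used names alone, but it was set with earlier results of these data known.

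RNA-seq was performed on germinal vesicle (GV) oocytes, which are fully grown and arrested in meiotic prophase, and on metaphase II (MII) eggs, which have matured and been ovulated. Both stages came from wildtype (WT) females and from Zp3-Cre; Psma7 flox/flox females (Psma7 cKO), 4 biological replicates to a group and 16 libraries in all. Zp3-Cre acts in the oocyte alone, from the primary follicle onward, so the follicle cells of cKO females keep Psma7. Whether the WT females carried unrecombined floxed alleles is not given in the sources used here. All females were 3 to 4 weeks old and received 5 IU PMSG. GV oocytes were taken 44 h later, and eggs came from oviducts 14 to 16 h after hCG, freed of cumulus cells with 0.3% hyaluronidase. The study reports that some oocytes ovulated by cKO females stayed at the GV stage or arrested before metaphase II. Whether such cells were excluded from the cKO egg libraries is not stated in the sources used here. The sample descriptions give 5 oocytes for a sample, whereas the methods text of the study gives 10. Values are FPKM, fragment numbers divided by transcript length and library size, which can be compared between genes and are relative within a library.

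Psma7 itself was at 165 ± 25.3 FPKM (SD, n = 4) in WT GV oocytes and 14.6 ± 2.82 in cKO GV oocytes, and at 126 ± 32.1 in WT eggs and 39.7 ± 20.2 in cKO eggs. The groups of each stage did not overlap. All 8 oocyte markers examined (Gdf9, Bmp15, Zp1, Zp2, Zp3, Figla, Nlrp5 and Ooep) were present in every group. Of 12 cumulus and granulosa cell markers, 9 in GV oocytes and 10 in eggs averaged under 1 FPKM, Fshr, Foxl2, Amh, Inha and Star among them. Kitl and Cyp19a1 were above 1 FPKM in every group and Cyp11a1 in GV oocytes. The summed level of all 12 ran from 13.8 to 21.9 FPKM over the libraries, against 5198 to 14880 FPKM for the oocyte markers. The steps between low FPKM values placed the depth of the libraries at 10500000 to 15700000 fragments, so that 1 fragment on a transcript of 1000 nt was worth 0.0639 to 0.095 FPKM. The egg libraries of cKO females were not alike. For the 395 entries (members left out) that fell more than 10-fold during WT maturation, FPKM was summed and set against same-genotype GV libraries. The sum was 5.92 to 6.79% of the GV level in the 4 WT egg libraries, and 12.7%, 8.79%, 34.5% and 19.1% in cKO egg libraries 1 to 4. The entries were chosen on the WT libraries, which fixes low values there and favours higher ones in cKO, so the genotypes are not compared by this measure, and it serves to describe how the cKO egg libraries differ among themselves.

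The promoters of the conjugation genes are shown first, because Atg5 was the most abundant of all members and Atg3 was among the few that rose during maturation, and both promoters hold CACGTG, the core of the E-box that factors of the Tfeb and Mitf family bind in lysosomal and autophagy genes. The windows run from 250 bases before to 50 bases after a RefSeq start of each gene (GRCm38.p6, read 5′ to 3′ on the gene's strand). CACGTG, which reads the same on both strands, is in capitals.

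Atg5 promoter, chr10:44268089-44268388, plus strand: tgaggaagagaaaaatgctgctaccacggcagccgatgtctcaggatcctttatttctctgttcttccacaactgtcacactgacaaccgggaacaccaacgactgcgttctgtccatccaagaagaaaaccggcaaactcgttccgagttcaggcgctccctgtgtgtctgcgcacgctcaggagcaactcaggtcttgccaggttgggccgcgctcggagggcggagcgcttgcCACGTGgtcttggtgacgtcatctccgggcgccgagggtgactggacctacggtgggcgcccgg

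Atg3 promoter, chr16:45158579-45158878, plus strand: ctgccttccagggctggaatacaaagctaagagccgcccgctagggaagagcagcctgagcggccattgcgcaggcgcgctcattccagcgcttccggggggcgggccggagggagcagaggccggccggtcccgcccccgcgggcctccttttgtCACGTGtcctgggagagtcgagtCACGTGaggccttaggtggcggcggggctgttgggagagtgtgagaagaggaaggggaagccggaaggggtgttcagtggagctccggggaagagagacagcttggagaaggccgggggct

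In Atg5 the motif begins 14 bases before the start site. In Atg3 it occurs at 94 and at 71 bases before the start. Of the 30 members with a promoter in the RefSeq table, 4 held CACGTG (Atg3, Atg5, Atg7 and Atg14), or 13.3%, against 8.09% of all 27025 gene symbols with a promoter of this length. Some genes had more than 1 window, and counted by window the shares were 11.8% of 34 and 7.15% of 32851. The Atg7 window with the motif begins at 114670846 on chromosome 6, inside the gene, whose GENCODE start is 114643097. The 4 did not move alike during maturation, as Atg3 rose in WT eggs and Atg7 and Atg14 fell. The match is a description of these letters and not of binding. The study describes fully grown oocytes as transcriptionally quiescent. Whether the motif bears on the level or change of any member was not tested.

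Transcripts of Atg5, Atg12 and Atg16l1, the components of the ATG12-ATG5-ATG16L1 complex, were the most abundant of the pathway. Atg5, which accepts ATG12 and with it forms the enzyme that lipidates ATG8 proteins, was at 395 ± 12.3 FPKM (SD, n = 4) in WT GV oocytes, 384 ± 8 in cKO GV oocytes, 342 ± 17.3 in WT eggs and 350 ± 7.16 in cKO eggs. It ranked 147th of all entries by mean level. Atg12 followed at 160 ± 19 and 181 ± 9.01 FPKM in WT and cKO GV oocytes, and Atg16l1, which anchors the conjugate to the membrane, at 114 ± 23.7 and 132 ± 13.1. Atg5 alone made up 30.6% of the summed FPKM of all members in WT GV oocytes and 38.9% in WT eggs, and Atg5, Atg12 and Atg16l1 together made up 51.7% and 57.1%. The 3 components were far from equal as transcripts. Atg12 was at 40.7% ± 5.17 of the Atg5 level in WT GV oocytes and 29.9% ± 3.17 in WT eggs, and Atg16l1 at 28.9% ± 5.94 and 16.8% ± 2.47.

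Over the 16 libraries, 28 of the 41 entries averaged at least 1 FPKM, or 68.3%, against 37.1% of the whole table. The members with the highest mean in the other role groups were Tax1bp1 among the receptors (81.4 FPKM over 16 libraries), Gabarapl2 in the ATG8 family (41), Uvrag in the PI3-kinase complex (33.8), Rb1cc1 in the kinase complex (18.4) and Wipi2 among the PI3P effectors (5.22). The ATG8 family was divided. Gabarapl2, Map1lc3a and Map1lc3b each provided between 30% and 36.6% of its summed level in WT GV oocytes, whereas both entries of Gabarap and Gabarapl1 stayed under 1 FPKM in every library and Gabarapl1 was listed at 0 in 10 of 16. Among the ATG4 proteases, which trim ATG8 proteins before lipidation, Atg4b predominated in GV oocytes at 85.7 FPKM, Atg4a entry 1 was at 4.05, Atg4c was at 0.973, and Atg4d was listed at 0 in 13 of 16 libraries. Other entries under the filter in every comparison were Atg9b, Atg16l2, Atg2a entry 2, Atg4a entry 2 and both entries of Atg4a-ps, which is named as a pseudogene of Atg4a. Reads of such near-identical copies can be divided between them, so the level of Atg4a is uncertain to that extent.

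**Figure D1:**
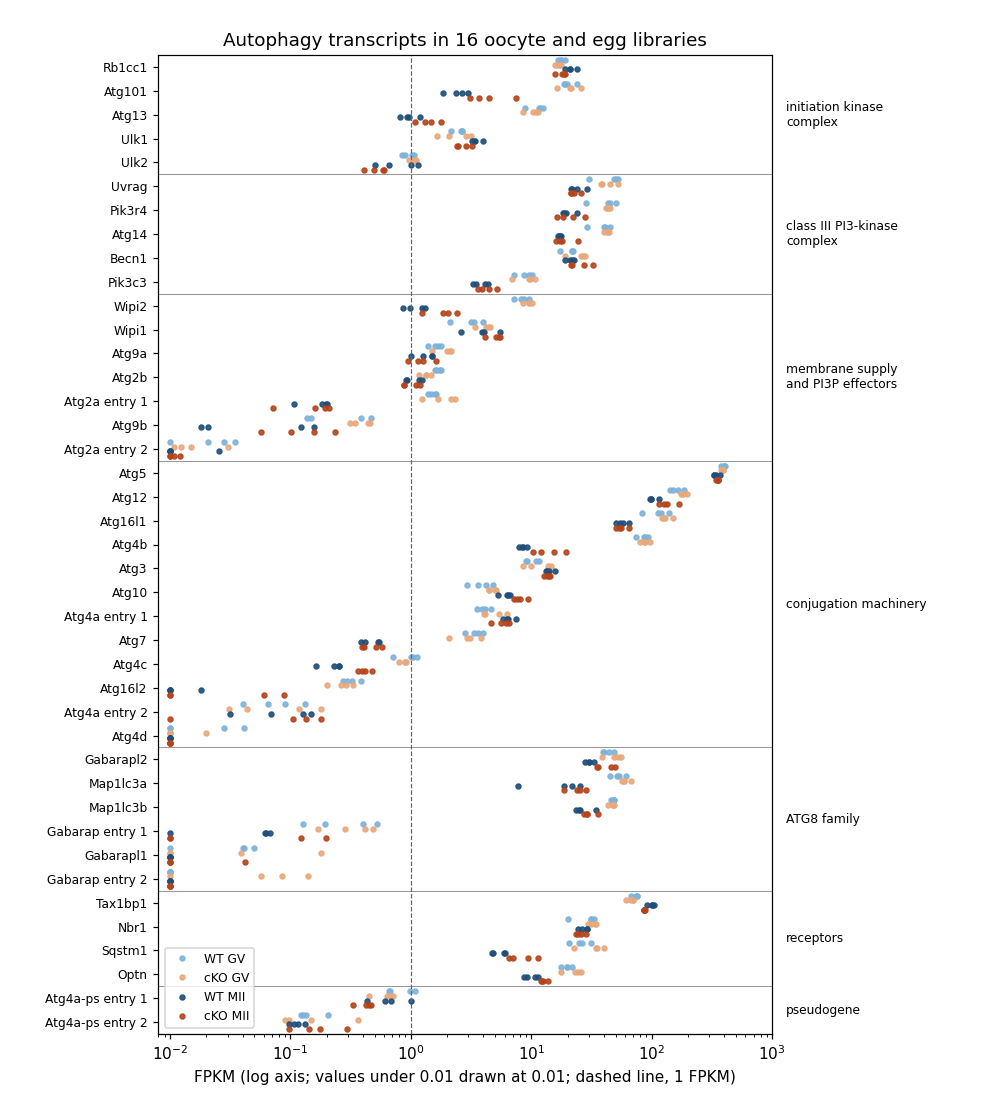
FPKM of all 41 entries (rows, grouped by role) in each of the 16 libraries on a log axis, with values under 0.01 FPKM drawn at 0.01 and a dashed line at 1 FPKM. Light blue and light orange points are WT and cKO GV oocytes, dark blue and dark red points WT and cKO MII eggs. Atg5 lay furthest to the right in every library, and all values of Gabarap, Gabarapl1 and Atg4d lay to the left of the line.

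The first question was whether the machinery changed as WT oocytes matured. For each comparison, FPKM values were floored at 1, entries whose average reached 1 FPKM in those libraries were fitted with limma's trended moderated test on the log2 scale, and p-values were adjusted by the Benjamini-Hochberg method over all entries tested, with a threshold of 0.05. Of 28 members tested, 18 (64.3%) fell from WT GV oocytes to WT eggs and 6 (21.4%) rose. Over all 10475 entries tested, 52.4% fell and 26.1% rose. The median log2 fold change of the members was -0.74, against -0.44 over all entries. Rescaling the libraries by the median ratio of expressed genes moved the median of all entries by 0.23, and then 17 members fell and 8 rose, with Becn1 and Wipi1 added to those that rose. Over all entries 4792 fell and 3457 rose after rescaling, against 5486 and 2738 before, so the shift was not particular to the members. FPKM values are relative to each library's total and no spike-in entries stand in the table, so a change for each cell was not measured. Oligo-dT priming recovers polyadenylated RNA, and loss of a transcript cannot be told apart from loss of its poly(A) tail. In pools of oocytes, fewer contributing cells and less RNA for each cell cannot be told apart either.

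The kinase complex split into components that fell and components that rose. Atg13, the adaptor that binds Ulk1 to Rb1cc1, measured 12.4, 11.8, 8.86 and 11.6 FPKM in the WT GV libraries and 0.811, 0.957, 0.922 and 1.18 FPKM in the WT egg libraries. The groups were far apart, and 3 of 4 egg values lay under the floor, so the fitted log2 fold change of -3.41 (SE 0.14, adjusted p = 5.14e-09) is an underestimate. Its partner Atg101 measured 18.6, 19.2, 19.8 and 24.1 FPKM in WT GV libraries and 2.39, 2.96, 1.84 and 2.68 in eggs, a log2 fold change of -3.06 (SE 0.16, adjusted p = 2.43e-08). Atg13 thus kept 8.65% and Atg101 12.1% of the GV level. By contrast, the kinase Ulk1 rose from 2.59, 2.66, 2.64 and 2.14 FPKM to 3.94, 3.43, 3.35 and 3.19 (log2 fold change 0.48, SE 0.13, adjusted p = 0.00618), and the scaffold Rb1cc1 (FIP200) rose from 16.8, 17.6, 18.9 and 17.7 FPKM to 20.9, 19.2, 20.8 and 23.9 (0.25, SE 0.09, adjusted p = 0.0266). The egg values of both lay above all GV values. The rise of Rb1cc1 was small and lost its call when WT GV library 1, 2 or 4 or WT egg library 1 or 4 was left out (adjusted p from 0.0507 to 0.0758). Ulk2 was too low to be tested.

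In the PI3-kinase complex, 4 of 5 members fell by similar amounts and the fifth did not pass. The catalytic subunit Pik3c3 (VPS34), the regulatory subunit Pik3r4 (VPS15), Atg14, which directs the complex to autophagosome formation, and Uvrag, its counterpart in endosomal complexes, kept 42.9%, 47.7%, 44.3% and 52.9% of their GV level, with log2 fold changes from -1.22 to -0.89 and groups that did not overlap. Becn1, the scaffold of both complexes, was at 20.7 ± 2.33 FPKM in WT GV oocytes and 21.1 ± 1.49 in WT eggs (log2 fold change 0.03, 95% interval -0.2 to 0.26, adjusted p = 0.812). Of the PI3P effectors, Wipi2, which recruits ATG16L1 to the membrane, fell from 9.47, 8.67, 7.18 and 8.22 FPKM to 0.987, 1.24, 1.31 and 0.854 (log2 fold change -2.89, SE 0.15, adjusted p = 2.01e-08). Its paralogue Wipi1 measured 3.14 ± 0.768 and 4.02 ± 1.19 FPKM and did not pass (adjusted p = 0.223). The lipid transfer protein gene Atg2b fell (log2 fold change -0.62, adjusted p = 9.06e-04), and Atg9a, the scramblase of the vesicles that seed autophagosomes, did not pass (adjusted p = 0.109).

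In the conjugation machinery the protease and the activating enzyme fell most, and the conjugating enzymes rose. Atg4b measured 86.9, 93.3, 74.4 and 88 FPKM in the WT GV libraries and 8.49, 8.42, 9.24 and 7.96 in the WT egg libraries, a log2 fold change of -3.33 (SE 0.09, adjusted p = 6.80e-10). It was the largest fall, in FPKM, of any member. Atg7, the E1-like enzyme that activates both ATG12 and ATG8 proteins, went from 3.42 ± 0.505 FPKM to 0.471 ± 0.083, where all 4 egg values stood under the floor, so that its log2 fold change of -1.76 (adjusted p = 5.19e-07) is an underestimate. The E2-like enzymes moved the other way: Atg10, which transfers ATG12, rose from 2.92, 4.17, 4.78 and 3.61 FPKM to 6.64, 5.29, 6.45 and 6.24 (log2 fold change 0.69, SE 0.16, adjusted p = 0.00246), and Atg3, which transfers ATG8 proteins, rose from 10.2 ± 1.23 to 14 ± 1.09 FPKM (0.46, SE 0.11, adjusted p = 0.00311). Atg4a entry 1 rose from 4.05 ± 0.463 to 6.49 ± 0.705 FPKM (0.68, adjusted p = 5.81e-04), the opposite of Atg4b. Atg12 and Atg16l1 fell to 63.5% and 50.1% of their GV level. Atg5 fell least, to 86.6% (log2 fold change -0.21, adjusted p = 0.0168), and this small fall was absent after rescaling (0.01, adjusted p = 0.876) and lost its call without WT egg library 2 (adjusted p = 0.0549).

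The 3 expressed ATG8 genes all fell in WT maturation, Map1lc3a to 34.8%, Map1lc3b to 56.8% and Gabarapl2 to 70.5% of the GV level, so that Gabarapl2 went from 30% ± 2.66 to 40.1% ± 3.43 of the family's summed FPKM. One WT egg library, number 4, held 7.77 FPKM of Map1lc3a where the other 3 held 18.7 to 25.3. The receptors changed order instead. Sqstm1 (p62) measured 25.1, 26.5, 20.6 and 31.4 FPKM in WT GV libraries and 4.78, 6.1, 5.88 and 4.67 in WT eggs (log2 fold change -2.27, SE 0.15, adjusted p = 1.31e-07). Optn, a receptor in the clearance of mitochondria and aggregates, fell to 51% of its GV level, and Nbr1 measured 29 ± 5.85 and 27.2 ± 2.15 FPKM without passing (adjusted p = 0.676). Tax1bp1, a receptor for ubiquitinated aggregates, rose from 67.7, 75, 74.2 and 75.3 FPKM to 100.2, 100.1, 91.3 and 104 (log2 fold change 0.44, SE 0.07, adjusted p = 2.65e-04). The summed FPKM of the 4 receptors was 148 ± 12.2 in WT GV oocytes and 141 ± 3.25 in WT eggs, in which the part of Sqstm1 went from 17.4% to 3.8% and that of Tax1bp1 from 49.7% to 69.9%.

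**Figure D2:**
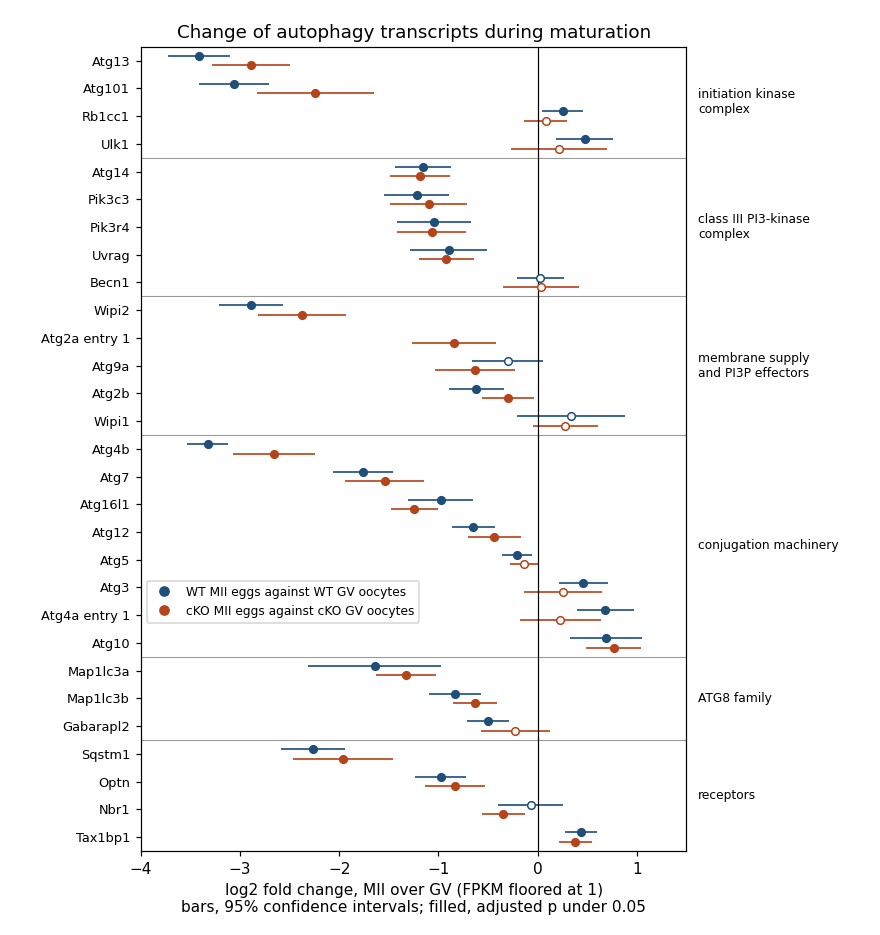
Log2 fold change of each tested member from GV oocytes to MII eggs (FPKM floored at 1), in WT (blue) and Psma7 cKO (red), with 95% confidence intervals and filled points for adjusted p under 0.05, grouped by role. Atg13, Atg101, Wipi2, Atg4b and Sqstm1 fell most in both genotypes, and Atg10 and Tax1bp1 rose in both.

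The same comparison was made for cKO oocytes. Of 29 members tested, 19 fell (65.5%) and 2 rose (6.9%), against 51% and 23% of the 10748 entries tested, and the median log2 fold change was -0.63 for the members and -0.42 for all entries. Atg2a entry 1 is among the 29 and the 19. It did not reach the filter in WT, so the counts of the genotypes do not cover quite the same members. After rescaling, 14 members fell and 6 rose, with Rb1cc1, Atg3, Atg4a entry 1 and Wipi1 added to those that rose. Over all entries 4574 fell and 3314 rose after rescaling, against 5482 and 2472 before. The WT and cKO comparisons use separate libraries, and 16 members fell in both and 2, Atg10 and Tax1bp1, rose in both. In the single comparisons 52.4% (WT) and 51% (cKO) of all entries fell. The share of all entries that fell or rose in both is not given here, so these joint counts are no result about the members. On the floored scale, the 6 largest falls were those of the same 6 genes as in WT. They were Atg13, Atg4b, Wipi2, Atg101, Sqstm1 and Atg7, with log2 fold changes from -2.89 to -1.54. Atg2a entry 1 went from 1.85 ± 0.49 to 0.158 ± 0.061 FPKM, and kept 8.57% of its GV level (11.4% in WT). Its egg values all stood under the floor, so its log2 fold change of -0.84 (adjusted p = 0.00277) is an underestimate. Atg4b measured 79.5, 87.8, 97.2 and 85.9 FPKM in the cKO GV libraries and 12.1, 10.3, 19.5 and 15.3 in cKO eggs, and kept 16.3% of its GV level where WT eggs kept 9.95%. Atg101 kept 22% in cKO and 12.1% in WT, Wipi2 19.8% and 13.1%, Atg13 13.6% and 8.65%, and Sqstm1 25.9% and 20.7%. Atg7 kept 15.7% and 13.7%, with all egg values of both genotypes under the floor. Not every member kept more in cKO, as Atg16l1 kept 42.3% in cKO and 50.1% in WT, and Nbr1 78.8% and 93.7%. Atg10 rose from 4.98, 4.44, 4.43 and 5.13 FPKM to 7.18, 7.66, 9.46 and 8.11 (log2 fold change 0.77, SE 0.12, adjusted p = 4.01e-04), and Tax1bp1 from 66.8 ± 4.15 to 86.9 ± 1.02 FPKM (0.38, SE 0.07, adjusted p = 0.00122). Rb1cc1, Ulk1, Atg3 and Atg4a entry 1 rose in WT and did not pass in cKO, with log2 fold changes of 0.08, 0.22, 0.25 and 0.23 there before rescaling.

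Whether maturation differed between genotypes was tested by the interaction of genotype and stage over all 16 libraries. No member passed with limma (0 of 28), against 1.07% of 10615 entries with a positive and 0.188% with a negative interaction. At an unadjusted p under 0.05, 3 of 28 members were positive and 0 negative, against 1347 and 534 of 10615 entries. The lowest adjusted p was that of Atg4b (0.113), with a difference of 0.67 on the log2 scale (95% interval 0.22 to 1.12). Differences of Atg101 and Atg13 were 0.82 (0.14 to 1.5) and 0.52 (0.05 to 0.99). For Rb1cc1, Ulk1, Atg3 and Atg4a entry 1, which passed in WT alone, the interaction had adjusted p = 0.509, 0.657, 0.673 and 0.305, so a difference between genotypes was not shown. Without cKO egg library 2, Atg4b (0.82, adjusted p = 0.0169) and Wipi2 (0.7, adjusted p = 0.0494) passed.

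In GV oocytes no member differed between genotypes by limma. Of 30 tested, 0 passed in either direction, and over all 11062 entries 0.0994% were higher and 0.0181% lower in cKO. At an unadjusted p under 0.05, 1 member, Atg2b, was lower and 0 were higher, against 339 and 843 of all 11062 entries. The 95% intervals of all 30 members lay within a 2-fold change in either direction, the widest bounds being -0.66 and 0.86 on the log2 scale. The median log2 fold change was 0.15 for the members and 0.04 for all entries. Sqstm1, whose transcript is often raised when proteasomes are inhibited, measured 22.8, 40.1, 34.4 and 35.2 FPKM in cKO GV libraries, against 25.1, 26.5, 20.6 and 31.4 in WT. The groups overlapped through cKO library 1, and the log2 difference was 0.34 (95% interval -0.05 to 0.74, adjusted p = 0.541). Map1lc3b, Atg4b, Atg101 and Atg5 had the smallest log2 differences, -0.03, 0.03, 0.04 and -0.04. WT GV library 3 was the lowest of its group for 18 of 28 members and cKO GV library 1 for 17 of 28, against 36.7% and 29.3% of all entries at this level. Without WT library 3 or cKO library 1, 0 members passed as well.

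In eggs, 1 of 27 members tested was higher in cKO and 0 were lower, against 6.53% higher and 1.49% lower of the 9492 entries. The member was Atg4b, at 8.49, 8.42, 9.24 and 7.96 FPKM in WT eggs and 12.1, 10.3, 19.5 and 15.3 in cKO eggs. All cKO values lay above all WT values, with a log2 difference of 0.71 (SE 0.18, adjusted p = 0.0476), 1.68-fold by the means. The call was narrow: it was lost when any library other than cKO egg library 2 was left out, with log2 differences from 0.54 to 0.77 and adjusted p from 0.0624 to 0.125, and with the replicate block (adjusted p = 0.0682). Among the cKO egg libraries, Atg4b was highest in 3 and 4 and lowest in 2. The summed FPKM of transcripts that decay in WT remained there at 34.5%, 19.1% and 8.79% of the GV level, in that order. The part of this retention in the difference was not tested. Atg4b itself fell 10.05-fold by WT means, past the 10-fold cut for those transcripts, and as a member was left out of their sum. Leaving out library 3 gave a log2 difference of 0.54 (adjusted p = 0.0676).

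Further members stood apart without passing. The 4 cKO values exceeded the 4 WT values for 7 of 27 members (25.9%), against 13.6% of all entries tested. The 7, chosen for description after their values were seen, were Atg4b, Atg101, Sqstm1, Gabarapl2, Atg12, Atg10 and Optn. Atg101 measured 3.7, 3.1, 7.41 and 4.41 FPKM in cKO eggs (log2 difference 0.86, 95% interval 0.25 to 1.46, adjusted p = 0.0781), highest in library 3 as for Atg4b. Sqstm1 measured 11.4, 9.38, 6.48 and 7.01 FPKM (0.65, 0.22 to 1.08, adjusted p = 0.0654), which was highest in libraries 1 and 2. Gabarapl2 measured 36.1, 35.3, 49.7 and 45.9 FPKM against 30.3, 28.1, 29.9 and 33.4 in WT (0.44, 0.17 to 0.72, adjusted p = 0.0555). Atg12 measured 168, 134, 125 and 115 FPKM against 98, 97.1, 114 and 98.5 (0.4, 0.14 to 0.66, adjusted p = 0.0606), with its highest value in library 1. So the libraries that were high differed between these genes. Atg10, at 8.1 ± 0.98 against 6.16 ± 0.597 FPKM, and Optn, at 12.6 ± 0.843 against 10 ± 1.31, had adjusted p = 0.0754 and 0.0857.

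In the opposite direction the cKO values lay under all WT values for 2 of 27 members (7.41%), against 7.06% of all entries. They were Tax1bp1, at 86.5, 85.9, 88.3 and 86.8 FPKM in cKO eggs (log2 difference -0.18, 95% interval -0.32 to -0.05, adjusted p = 0.0804), and Rb1cc1, at 15.7, 18.9, 18 and 18.7 FPKM (-0.25, -0.47 to -0.04, adjusted p = 0.122). Ulk1 (-0.34, adjusted p = 0.14) overlapped between genotypes. The summed FPKM of the ATG8 family was 75.9 ± 2 in WT eggs and 96.2 ± 12.2 in cKO eggs (n = 4 each), from 73.9 to 78.7 and from 87.7 to 114 in the libraries, without overlap. The sums of the conjugation machinery, 537 ± 16.4 and 584 ± 28.8, and of all members, 878 ± 16.3 and 944 ± 42, did not overlap either. As a share of the library's summed FPKM, all members held 0.214 to 0.227% in WT eggs and 0.222 to 0.249% in cKO eggs. These shares overlapped. Sums overlapped for the PI3-kinase complex (86 ± 1.92 and 92.6 ± 14.4), the kinase complex (28.9 ± 2.24 and 27.2 ± 2.34), membrane supply and PI3P effectors (7.75 ± 1.46 and 9.48 ± 0.64) and the receptors (141 ± 3.25 and 134 ± 4.68). Sums over members carry no test here.

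**Figure D3:**
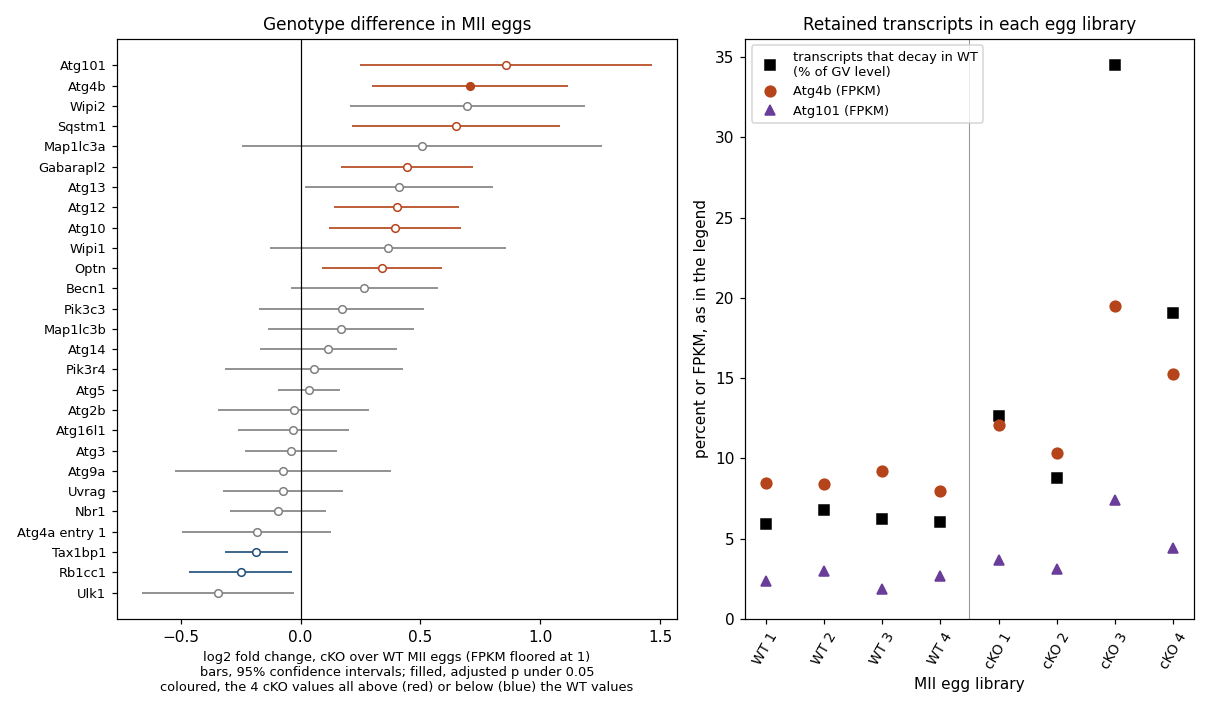
Left, log2 difference between cKO and WT MII eggs for the 27 tested members with 95% confidence intervals, filled for adjusted p under 0.05 (Atg4b) and coloured where the 4 values of each genotype did not overlap. Right, for each of the 8 egg libraries, the summed FPKM of transcripts that decay in WT, in percent of the GV level (black squares). FPKM of Atg4b (circles) and Atg101 (triangles) is drawn beside it, and all were highest in cKO library 3.

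**Figure D4:**
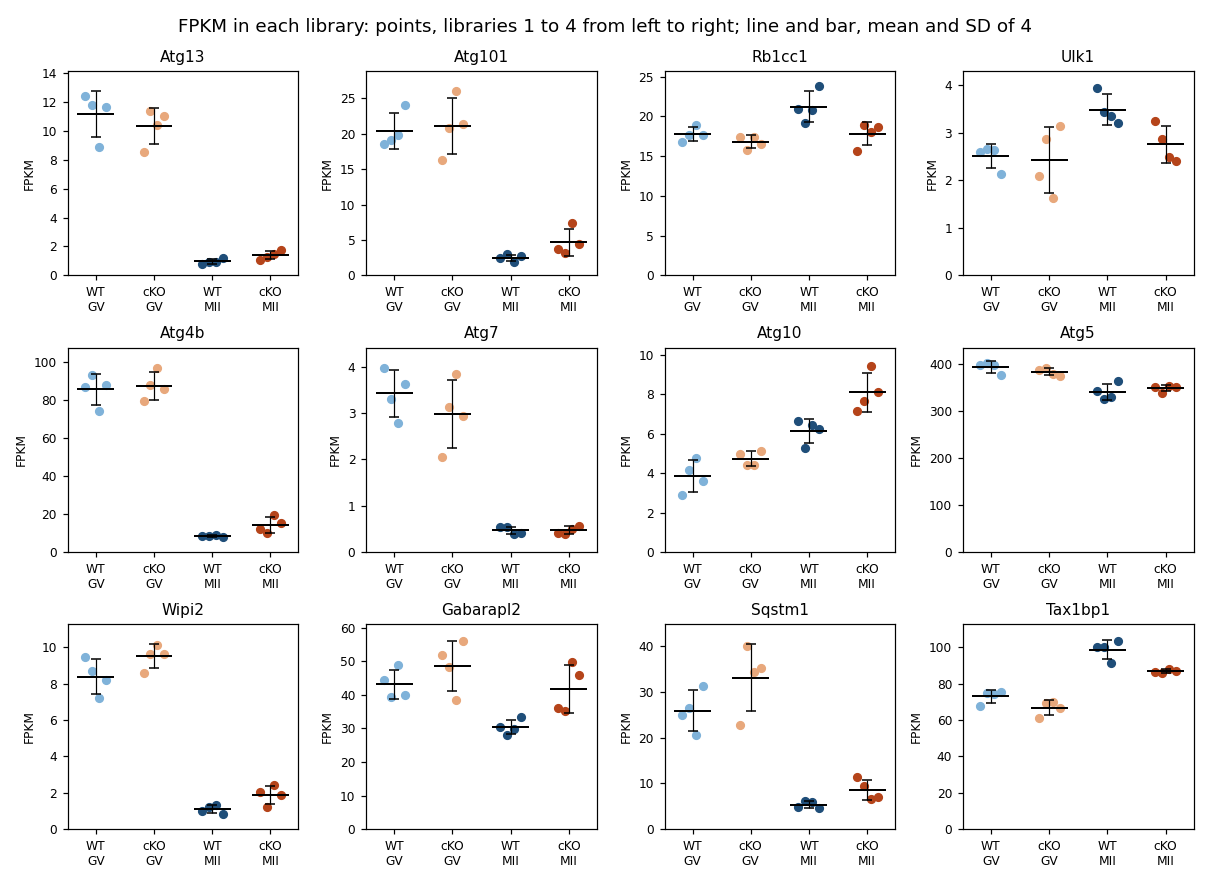
FPKM in each of the 16 libraries for 12 members of the kinase complex, conjugation machinery, PI3P effectors, ATG8 family and receptors, with the mean and SD of the 4 libraries of each group and every axis starting at 0. Atg13, Atg101, Atg4b, Atg7, Wipi2 and Sqstm1 dropped between GV oocytes and eggs, whereas Atg10 and Tax1bp1 stood higher in eggs of both genotypes.

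The genes around this core were examined in the same way. A wider list of 69 autophagy genes (regulators of mTORC1 and AMPK, mitophagy receptors, and factors of autophagosome closure and fusion) had 65 names in the table. In WT maturation 34 of 54 tested entries of the list fell and 10 rose, where 52.4% of all entries fell and 26.1% rose. In cKO 34 of 55 fell and 9 rose, where 51% and 23% of all entries did. Rheb, the GTPase that activates mTORC1, rose from 183 ± 20.5 to 499 ± 13.5 FPKM in WT (log2 fold change 1.45), Rictor, which defines mTORC2, from 8.06 ± 0.977 to 19.5 ± 1.17 (1.28), and the mitophagy receptor Bnip3 from 62.2 ± 5.07 to 140 ± 19 (1.17). The corresponding log2 fold changes in cKO were 1.32, 1.27 and 1.16. The fusion genes Vamp8 entry 1, a SNARE, and Vps11, a subunit of the HOPS tether, had log2 fold changes of -3.97 and -3.46 in WT, and Nufip1, a receptor for ribosomes, -3.72. In cKO the largest falls were those of Vps11 (-3.39), Akt1s1, an mTORC1 inhibitor (-3.29), and Nufip1 (-2.92). In GV oocytes 0 of 56 entries of the list differed between genotypes by limma. In eggs 3 of 50 were higher in cKO and 1 was lower, shares near the 6.53% and 1.49% of all entries, so the counts are no result about the list. The 3 were Prkag1, a subunit of AMPK (5.88 ± 1 and 11.3 ± 3.49 FPKM, log2 difference 0.91, adjusted p = 0.0373), Phb2, a mitochondrial mitophagy receptor (15.9 ± 1.88 and 25.2 ± 4.45, 0.66, adjusted p = 0.0332), and Bnip3l (61.8 ± 6.42 and 83.6 ± 8.6, 0.44, adjusted p = 0.0363). Mtor entry 1 was lower, at 3.08 ± 0.187 in WT and 2.24 ± 0.166 FPKM in cKO (-0.46, adjusted p = 0.0477). These calls were narrow too. With 1 library left out, Prkag1 and Phb2 each passed in 2 of 8 limma fits. Bnip3l and Mtor entry 1 each passed in 1 of 8. The highest adjusted p in those fits was 0.11 for Prkag1, 0.0776 for Phb2, 0.104 for Bnip3l and 0.131 for Mtor entry 1.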

How the data were processed

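The authors prepared Smart-seq2 libraries and deposited FPKM values for each table entry, made with Cufflinks 2.2.1 after alignment with TopHat2 2.1.1 to mm10 according to the submitters' processing notes. Entries carry gene names without coordinates, and no columns of other samples were present. Values below 1 FPKM were set to 1, as in the study. Entries averaging at least 1 FPKM in the libraries compared were fitted with limma 3.58.1 in R 4.3.3 (trended moderation, 8 libraries in each pairwise comparison, all 16 in the interaction), and p-values were adjusted over all entries. The script was tested on simulated data. Gene positions were taken from GENCODE M21 and promoters from RefSeq, both GRCm38. Depth was estimated from the steps of values under 0.6 FPKM in genes with 1 transcript. Named genes were all members past the threshold between genotypes, the 6 largest changes each way in maturation, the leading member of each role and those under the filter, with up to 6 genes of the wider list between genotypes and 3 each way in maturation. The members, role groups and lists were chosen with earlier results of these data known. Same-numbered libraries did not pair: correlations of their deviations ran from -0.5 to 0.29.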

Additional observations from a re-analysis of the deposited data

Results flagged for a closer look

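Values of the 15 members named above for their change or level, and of Psma7, were examined for 1 library far from the other 3 of its group. In 5 of 64 groups the gap between the lowest library and its neighbour, as a share of the group's range, exceeded Dixon's critical value for 4 samples, which chance exceeds in about 5% of groups. Atg5 was at 376.5 FPKM in WT GV library 4, where the others held 400 to 403, and at 339.2 FPKM in cKO egg library 2. Tax1bp1 was at 67.67 FPKM in WT GV library 1, Ulk1 at 2.135 FPKM in WT GV library 4, and Uvrag at 29.88 FPKM in WT GV library 3, where the others held 48.8 to 52. No member had genotype differences in opposite directions, each without overlap, in GV oocytes and eggs.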

How the results depend on the processing

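The counts of members that fell in either genotype, and of those that rose in WT maturation, stayed within 1.5 times their value under every alternative, and 0 members passed between genotypes in GV oocytes under each of them. The count higher in cKO eggs, 1 as reported, was 0 with 1 FPKM added in place of the floor, 0 without the filter on low values, 0 after rescaling, 0 with moderation that had no trend, 2 with a mean of at least 5 FPKM (Atg4b and Gabarapl2) and 6 with all 16 libraries in one fit. It ranged from 0 to 4 when 1 library was left out, with 4 (Atg4b, Atg101, Wipi2 and Gabarapl2) without cKO egg library 2. Over all entries tested, 620 were higher in cKO eggs as reported and 510 after rescaling. Counts over all entries under the other alternatives are not given here, so these member counts are no result about the members. The count that rose in cKO maturation went from 2 to 6 after rescaling, and that of all entries from 2472 to 3314. Positive interactions ranged from 0 to 2 with 1 library left out, again 2 without cKO egg library 2. With the replicate number as a block, 0 members were higher in cKO eggs. The block also ended the calls of Rb1cc1 and Atg5 in WT maturation (adjusted p = 0.0713 and 0.0852) and of Atg2b in cKO maturation (adjusted p = 0.0974), although the numbers share no stated animal or day. Summing entries of 1 name, an alternative added after the data were seen, changed no count of members by more than 1.5 times. The Atg2b call in cKO was lost without cKO GV library 2, 3 or 4 or cKO egg library 1, 3 or 4 (adjusted p from 0.0605 to 0.111). It was also lost with a floor of 0.1 FPKM, with 1 FPKM added and after rescaling (adjusted p = 0.0884, 0.0735 and 0.491). Rescaling ended the cKO maturation calls of Atg12, Nbr1 and Atg9a (adjusted p = 0.152, 0.397 and 0.0793), and the WT maturation value of Atg5 changed sign under it, to 0.0142. Moderation that had no trend ended the Atg5 call (adjusted p = 0.05004). Of 802 values for the 46 calls of members and the 2 genotype differences of Psma7 under the alternatives, 760 kept their call and direction, 41 lost the call (12 for Atg4b, 10 for Atg2b, 7 for Psma7, 6 for Rb1cc1, 3 for Atg5 and 1 each for Atg12, Nbr1 and Atg9a) and 1 reversed. The cause of these shifts was not tested. At 10500000 to 15700000 fragments a library, members under 1 FPKM rest on few fragments, and their changes are not detectable on the floored scale.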

Other observations

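The 3′ ends of the member transcripts were also read, a choice made after the maturation values were seen. In the last 100 bases of the principal GENCODE M21 transcript, TTTTAT or TTTTAAT, the core forms of the cytoplasmic polyadenylation element by which stored maternal mRNAs are activated, was present in 0 of the 6 members that rose in WT maturation. It was present in 3 of the 18 that fell (Atg16l1, Atg2b and Map1lc3b), or 16.7%. Over all entries that could be matched by name, it was present in 29.9% of 2244 that rose and 13.8% of 4513 that fell. With 6 members the count is given as a description.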
